A study of Mus musculus with 12 samples.

Results

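The 10 genes described here belong to 3 families of early response genes: Egr1, Egr2 and Egr3, then Nr4a1, Nr4a2 and Nr4a3, then Ier2, Ier3, Ier5 and Ier5l. They were chosen by name from the 29486 genes of the RNA-seq table, and all 10 were found. RNA was sequenced from primary splenic B cells of C57BL/6Babr mice in 3 conditions of 4 libraries each. All cells had first been activated with lipopolysaccharide (LPS), a bacterial cell wall component that drives B cells to divide, at 10 µg/ml for 47 or 48 hours in culture. The condition called LPS received nothing more. The condition called LE received in addition 20 µM etoposide for 4 hours, an inhibitor of topoisomerase II that leaves double-strand breaks in DNA. The condition called LEKU received 10 µM KU55933, an inhibitor of ATM, the kinase that signals double-strand breaks, for 1 hour before the same etoposide treatment. KU55933 without etoposide was not among the conditions, and the labels do not say whether the LPS cells stayed in culture for the extra hours of etoposide treatment. The comparisons ask which transcripts differed after DNA damage and which of those differences were smaller, or larger, when ATM was inhibited.

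Immediate early genes are transcribed within minutes of a signal without the need for new protein, and many of their transcripts are short-lived. In B cells they are best known as a readout of antigen receptor signalling, which reaches the Egr genes largely through the ERK kinases and the serum response factor (SRF) with its ternary complex partners, and the Nr4a genes largely through calcium and the cAMP response element binding (CREB) factors. Egr proteins are zinc finger transcription factors, Nr4a proteins are orphan nuclear receptors that act without a known hormone, and Ier proteins are a loosely named group of small nuclear and stress response proteins.

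The elements named above can be read in the promoter sequences. RefSeq promoter windows of build GRCm38.p6, each spanning 250 bases before to 50 bases after an annotated start site, were matched by symbol for 7 of the 10 genes, namely Egr2, Nr4a1, Nr4a2, Nr4a3, Ier3, Ier5 and Ier5l. Not matched were Egr1, Egr3 and Ier2. Each window was searched on both strands. The CArG box, the site bound by SRF, was found in Egr2 alone among the 7 genes. Egr2 has 5 windows, the last 3 of which overlap, and they hold 2 CArG boxes that each begin 72 bases upstream of an annotated start site. This box was present in 1.63% of all 32851 windows. By gene, it was in 1.57% of the 10193 genes that had a window and passed the abundance filter given below. The half-site TGACG of the CREB element was found 4 times in each of the Nr4a1, Nr4a2 and Nr4a3 windows and 2 times in Egr2, and not in the Ier3, Ier5 or Ier5l windows. At least 4 copies were held by 0.844% of those 10193 genes, whereas at least 1 copy was held by 34.8% of them. The cutoff of 4 is the Nr4a genes' own count, so the share beside it is a description only. The full element TGACGTCA, which contains TGACG, was in none of the 7 genes, in 1.79% of windows and in 3.63% of the 10193 genes. The sequences below show both CArG boxes of Egr2 and, for each Nr4a gene, the half-site closest to the start site, with the matched bases in capitals. In the Nr4a2 sequence the lower-case tgacg at the 5′ end is the neighbouring half-site.
Egr2, chr10:67537484-67537513, plus strand: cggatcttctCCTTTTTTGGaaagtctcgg
Egr2, chr10:67537787-67537816, plus strand: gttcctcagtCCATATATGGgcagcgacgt
Nr4a1, chr15:101266794-101266823, plus strand: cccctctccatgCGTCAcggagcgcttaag
Nr4a2, chr2:57124097-57124126, minus strand: tgacggggccgcTGACGcgcttggccgcgg
Nr4a3, chr4:48045146-48045175, plus strand: ctgtggcataaaTGACGtgccgagagagcg

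The Nr4a1 half-site is written as CGTCA because it lies on the opposite strand. These half-sites began 40, 111 and 147 bases upstream of the start sites of Nr4a1, Nr4a2 and Nr4a3. An Egr site (GCGTGGGCG or GCGGGGGCG) was found once, in Nr4a1 at 60 bases upstream. It was present in 3.47% of windows and in 7.22% of the genes that passed the filter. The Nr4a monomer site AAAGGTCA was in none of the 7 genes, in 1.51% of windows and in 1.24% of the genes that passed the filter. TATAAA was found once, in Nr4a2 (13.6% of windows and 8.80% of the genes that passed the filter). The Sp1 box GGGCGG was in 7 of 7 genes, and in 66.4% of the genes that passed the filter. G and C made up 72.3% of the Nr4a1 window, 81.7% of the Nr4a2 window and 64.7% of the Nr4a3 window, against a median of 60.3% over the windows of genes that passed the filter. These matches are letters in a window, and binding was not measured.

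**Figure D1:**
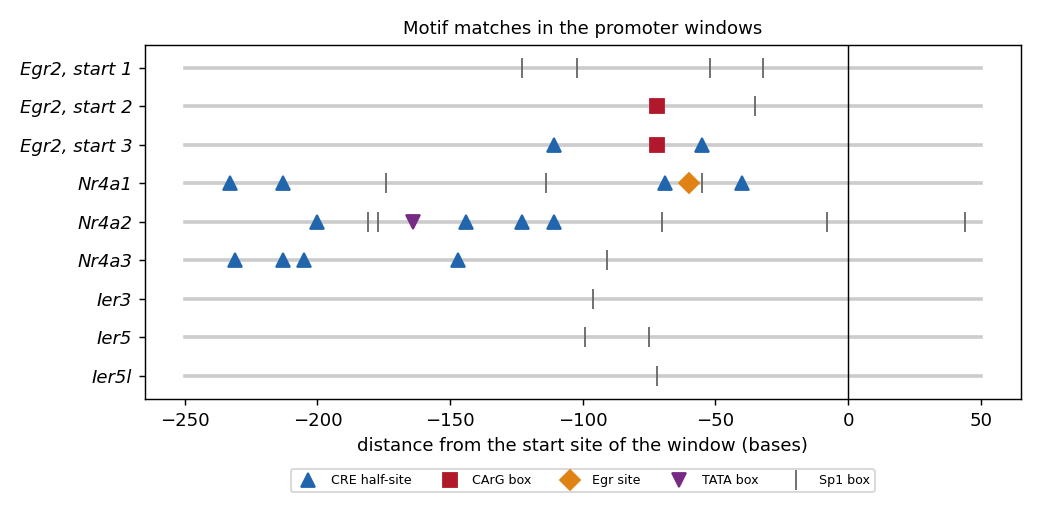
Positions of motif matches in the RefSeq promoter windows, in bases from the start site (negative values are upstream), with 1 line per window and Egr2 shown for its first 3 windows (the other 2 overlap the third and hold no further match). The 3 Nr4a genes carry 4 half-sites of the CREB element (triangles) each, the CArG box (squares) stands 72 bases upstream in 2 Egr2 windows, and Ier3, Ier5 and Ier5l show Sp1 boxes only.

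The values rest on 1 estimate for each condition. In the deposited table of normalised counts, the 4 columns of a condition were exact multiples of each other over all genes, so each holds the mean fitted for the condition times the size factor of a library. For Egr1, for example, the columns read 194, 215, 224 and 202 in LPS, then 822, 921, 1116 and 893 in LE, and 177, 200, 214 and 218 in LEKU. After division by the size factors every LPS library stood at 237, every LE library at 846 and every LEKU library at 195. The spread between replicates is therefore not in these values, no test was made, and errors below are counting errors only (exact Poisson intervals at 95%, or the standard error, SE, of a log2 difference), taken from the fitted counts summed over the 4 libraries as if they were counts. They are a lower limit on the true error. Summed over genes, the fitted counts of a library ran from 20739978 to 23935658 in LPS, 22523516 to 30575195 in LE and 20400994 to 25052093 in LEKU. A change is the difference of log2(scaled count + 1), and "past 2-fold" means at least 1 on that scale. The abundance filter asked that 4 or more libraries reach a scaled count of 10, and was passed by 15592 genes, all 10 members among them.

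The libraries carried the markers of B cells: 5 of 5 (Cd79a, Cd79b, Ms4a1, Pax5 and Cd22) were at scaled counts of 1122 to 31360 in every condition. Their summed level was 104890 in LPS, 55074 in LE and 53025 in LEKU, and the log2 change in LE against LPS was -2.30 for Pax5 and -2.49 for Cd22. Of the T cell markers 0 of 6 passed the filter (summed 8.82, 9.81 and 10.2 in LPS, LE and LEKU), and of the natural killer cell markers 0 of 2 (0.795, 0.981 and 1.42). Macrophage markers passed in 6 of 7 cases with sums of 419, 470 and 432, neutrophil markers in 1 of 4 cases with sums of 2.17, 15.0 and 4.41, S100a8 and S100a9 being under 1 in each condition, and red blood cell markers in 2 of 5 cases with sums of 216, 146 and 107. The neutrophil marker that passed was Mpo, at 1.26, 13.9 and 3.35 in LPS, LE and LEKU. It made up most of the neutrophil sum in LE and reached the filter's scaled count of 10 there alone. In LE against LPS, 3 of the macrophage markers were past 2-fold higher, Cd14 (5.18 to 24.2), Csf1r (4.18 to 10.3) and Cd68 (105 to 211), while Adgre1 and Itgam were lower. Csf1r, too, reached a scaled count of 10 in LE alone (9.72 in LEKU). The part of these shifts in the results below was not tested. In bulk RNA, fewer cells of a type and less RNA per cell cannot be told apart. A check list of 6 p53 targets was past 2-fold higher in LE than in LPS in 6 of 6 cases (14.2% of all genes). Cdkn1a, the cell cycle inhibitor p21, was at 412, 13448 and 10787 in LPS, LE and LEKU. The changes ranged from 1.36 for Bax and 2.66 for Mdm2 to 4.88 for Phlda3 and 5.03 for Cdkn1a. In LEKU against LE, 0 of these 6 were past 2-fold and all 6 were lower (median -0.45), from -0.81 for Mdm2 to -0.10 for Phlda3. Of all 15592 genes, 7123 were higher in LEKU than in LE (median -0.04). Each condition was sequenced with Illumina indexes that no other condition carried, so index and condition cannot be told apart.

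With etoposide, 6 of the 10 genes were past 2-fold higher than in LPS (Egr1, Nr4a1, Nr4a2, Nr4a3, Ier5 and Ier5l) and 0 were past 2-fold lower, with a median change of 1.46 over the 10. Among all genes that passed the filter, 14.2% were past 2-fold higher and 6.04% past 2-fold lower, and the median was -0.02. With KU55933 and etoposide against etoposide, 0 of the 10 were past 2-fold higher and 2 were past 2-fold lower, Egr1 and Egr2. There the background was 1.78% higher and 4.59% lower, and the members' median was 0.06 against -0.04 for all genes. With KU55933 and etoposide against LPS, 6 of the 10 were past 2-fold higher (the 3 Nr4a genes, Ier2, Ier5 and Ier5l) and 1, Egr2, was past 2-fold lower, beside 11.1% and 5.96% of all genes, with medians of 1.34 and 0.02. The 3 comparisons share libraries, so they are not independent of each other. Egr3 and Ier3 were past 2-fold in none of them.

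**Figure D2:**
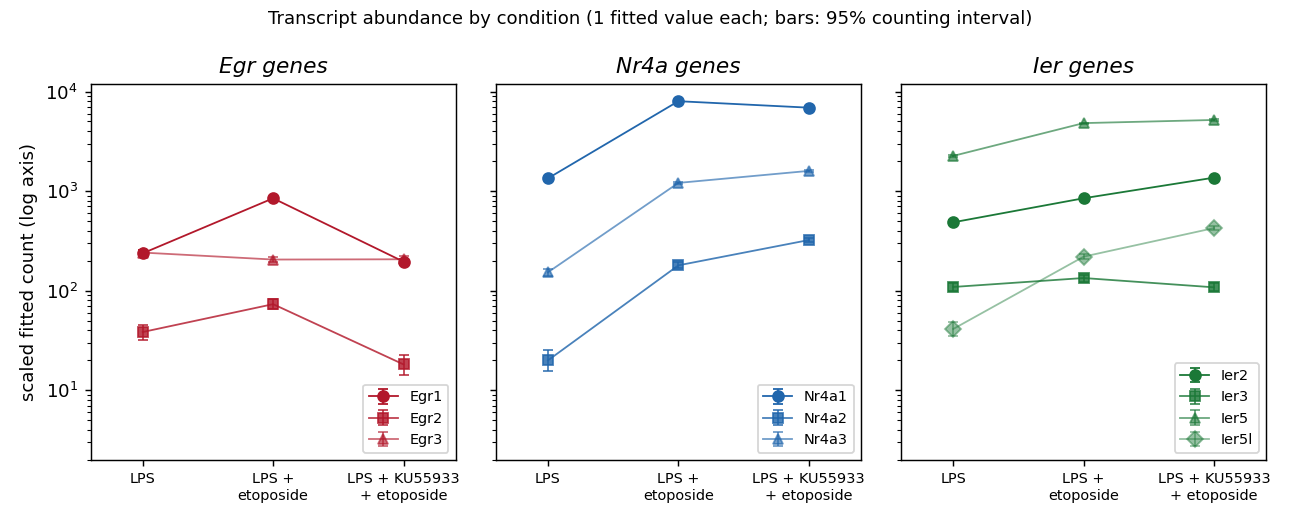
Scaled fitted counts of the 10 genes (log axis) in the 3 conditions, in panels for the Egr, Nr4a and Ier genes. Points are the 1 fitted value of a condition, bars the 95% counting interval, and lines join the values of a gene. Egr1 is at 846 in the middle condition and at 195 in the last one, whereas Nr4a2 (19.9, 179 and 322) and Ier5l (41.2, 219 and 425) are highest in the last one.

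Of the Egr genes, Egr1 and Egr2 were past 2-fold lower in LEKU than in LE and Egr3 was level. Egr1 encodes the founding factor of the family and is among the first transcripts made after receptor signalling. It lies at chr18:34859823-34864984 on the plus strand of GRCm38. Its scaled count was 237 (221 to 254) in LPS, 846 (819 to 874) in LE and 195 (182 to 209) in LEKU. It was thus 3.57-fold higher in LE than in LPS (log2 change 1.83, SE 0.055) and 4.33-fold higher in LE than in LEKU (log2 change LEKU minus LE -2.11, SE 0.056). In LEKU it stood slightly under its LPS value, with a log2 change of -0.28 (SE 0.071). Under other scalings this change lay between -0.38 and -0.04, so it was nearly level in some. Only 79 of the 15592 genes had a lower change than Egr1 in LEKU against LE, since its rank from the lowest was 80.

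Egr2, a factor linked in lymphocytes to the restraint of activation, lies at chr10:67535475-67542188 (plus strand) and is the gene whose promoter windows hold the CArG boxes printed above. Its scaled count was 38.4 (32.2 to 45.4) in LPS, 73.1 (65.4 to 81.6) in LE and 18.2 (14.3 to 22.8) in LEKU. The highest level was again in LE and the 3 counting intervals did not overlap. The change was 0.91 (SE 0.14) in LE against LPS, just short of 2-fold, and -1.95 (SE 0.18) in LEKU against LE, the 114th lowest of all genes. In LEKU against LPS it was -1.04 (SE 0.20), just past 2-fold, and under other scalings it lay between -1.32 and -0.81. Egr3, a close relative of Egr2 with overlapping roles in lymphocytes (chr14:70077203-70082614, plus strand), was at 241 (225 to 258) in LPS, 205 (192 to 219) in LE and 207 (193 to 221) in LEKU. Its changes were -0.23, 0.0087 and -0.22, with SEs of 0.069, 0.068 and 0.070, and the sign of each flipped in at least 1 of 7 other scalings.

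Per kilobase of exon, Egr1 and Egr3 were level in LPS (52.9 and 54.7 scaled counts per kb, with overlapping counting intervals) and again in LEKU (43.6 and 46.9). In LE, Egr1 was at 189 per kb and Egr3 at 46.6. Egr1 made up 45.9% of the summed Egr counts in LPS, 75.2% in LE and 46.5% in LEKU. The other Egr paralogue, Egr4, did not pass the filter (scaled counts of 0.26, 0.29 and 0.36), nor did Wt1, which binds a similar site. Of the corepressors that bind Egr proteins, Nab1 was at -0.50 and Nab2 at -0.03 in LE against LPS, and at 0.30 and 0.19 in LEKU against LE, so that 0 of 2 was past 2-fold in either. Of 6 genes described as Egr2 or Egr3 targets in lymphocytes, 5 passed the filter. In LE against LPS, 2 of the 5 were past 2-fold higher (14.2% of all genes). They were the cytokine signalling inhibitor Socs1 (1.86) and the ubiquitin ligase Rnf128 (1.84, from scaled counts of only 3.63 and 15.6). Rnf128 reached the filter's minimum in LE alone (8.33 in LEKU), so its call is partly built into the filter. Fasl, which did not pass, was at 2.14, 8.34 and 4.50 in LPS, LE and LEKU (change 1.57 in LE against LPS). The number past 2-fold was 3 without the filter and 1 with a minimum of 50. The lowest of the 5 were the ubiquitin ligases Cblb (-0.74) and Itch (-0.23). In LEKU against LE the same list had 1 past 2-fold higher (1.78% of all genes), Socs3 (1.05), and Rnf128 was at -0.83. Its medians were -0.04 and 0.04.

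The Nr4a genes were higher in both etoposide conditions. Nr4a1, also called Nur77, is widely used as a reporter of antigen receptor signalling and lies at chr15:101254269-101274795 (plus strand). Its scaled count was 1343 (1305 to 1382) in LPS, 7995 (7912 to 8078) in LE and 6884 (6804 to 6964) in LEKU. This was 5.95-fold higher in LE than in LPS (log2 change 2.57, SE 0.022). The change in LEKU against LE was -0.22 (SE 0.011), and the LEKU level remained 5.13-fold above that in LPS (2.36). Per kilobase it was the second of the 10 genes in LPS, at 383, behind Ier5 at 689, and the first in LE (2278) and LEKU (1962), against a median over all genes between 128 and 130 per kb.

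Nr4a2, also called Nurr1 and best known from dopamine neurons, lies at chr2:57106830-57124003 on the minus strand. It was the member with the least RNA per kilobase in LPS, 4.91. Its scaled count was 19.9 (15.5 to 25.2) in LPS, 179 (167 to 192) in LE and 322 (305 to 340) in LEKU, each above the one before without overlap of the intervals. The change was 3.11 (SE 0.17) in LE against LPS, the largest of the 10 genes there, then 0.84 (SE 0.064) in LEKU against LE, and 3.95 (SE 0.17) in LEKU against LPS. The last ranked 35th highest of all 15592 genes. Nr4a3, also called NOR1, is the remaining family member (chr4:48045153-48086447, plus strand). It was at 153 (140 to 166) in LPS, 1208 (1176 to 1241) in LE and 1595 (1557 to 1634) in LEKU. Its changes were 2.98 (SE 0.065), 0.40 (SE 0.027) and 3.38 (SE 0.064), the last ranking 61st highest.

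The makeup of the family differed between the conditions. Nr4a1 gave 88.6% of the summed Nr4a counts in LPS, 85.2% in LE and 78.2% in LEKU, while Nr4a3 gave 10.1%, 12.9% and 18.1% and Nr4a2 gave 1.31%, 1.91% and 3.66%. The family sum was 1516 in LPS, 9382 in LE and 8801 in LEKU, beside 517, 1124 and 420 for the Egr genes and 2891, 6017 and 7078 for the Ier genes. Of the retinoid X receptors, which pair with Nr4a1 and Nr4a2, 2 of 3 passed the filter. Rxra was at 34.9, 127 and 58.1 in LPS, LE and LEKU, with changes of 1.84 (SE 0.14) and -1.12 (SE 0.11). It was past 2-fold in both, in opposite directions, as Egr1 was. Rxrb was at 2224, 2228 and 2404, with changes of 0.0021 and 0.11.

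Among the Ier genes, Ier5 and Ier5l were past 2-fold higher with etoposide and the others were not. Ier5, which binds protein phosphatase 2A and is described as an activator of the heat shock factor Hsf1, lies at chr1:155096361-155099636 (minus strand). It was at 2256 (2206 to 2306) in LPS, 4816 (4752 to 4881) in LE and 5180 (5111 to 5250) in LEKU. Its change was 1.09 (SE 0.019) in LE against LPS and 0.11 (SE 0.014) in LEKU against LE, and its level in LEKU was 2.30-fold that in LPS. The first lay between 1.01 and 1.43 under other scalings, so it stayed past 2-fold. Ier5l, its paralogue, lies at chr2:30471537-30474219 (minus strand). It was at 41.2 (34.8 to 48.5) in LPS, 219 (206 to 234) in LE and 425 (406 to 446) in LEKU. The changes of 2.39 (SE 0.13), 0.95 (SE 0.057) and 3.34 (SE 0.12) include the largest increase of any member in LEKU against LE, close to 2-fold. These SEs leave out the gap between its fitted values and the authors' mean count, given below.

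Ier2, a nuclear protein made early after growth factor signals, lies at chr8:84661331-84662852 (minus strand). It was at 486 (463 to 509) in LPS, 847 (820 to 875) in LE and 1364 (1329 to 1400) in LEKU. The changes were 0.80 (SE 0.042) and 0.69 (SE 0.030), and together they took it past 2-fold in LEKU against LPS (1.49, SE 0.040). Ier3, also called IEX-1, is a stress-inducible regulator of cell survival at chr17:35821684-35822923 (plus strand). It was at 109 (98.2 to 120) in LPS, 134 (123 to 145) in LE and 108 (98.2 to 118) in LEKU. Its changes were 0.30 (SE 0.094), -0.31 (SE 0.090) and -0.01 (SE 0.10), and the sign of the last flipped in 3 of 7 other scalings. Of 6 genes of the heat shock response, Hsf1 itself was at -0.15 in LE against LPS, and 2 of 6 were past 2-fold higher (14.2% of all genes). These were Hspa1a (3.37) and Hspa1b (2.77), which are near-identical copies whose reads may be shared. Dnajb1 and Hsph1 were at 0.52 and -0.73. In LEKU against LE, 0 of the 6 were past 2-fold (median 0.31).

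**Figure D3:**
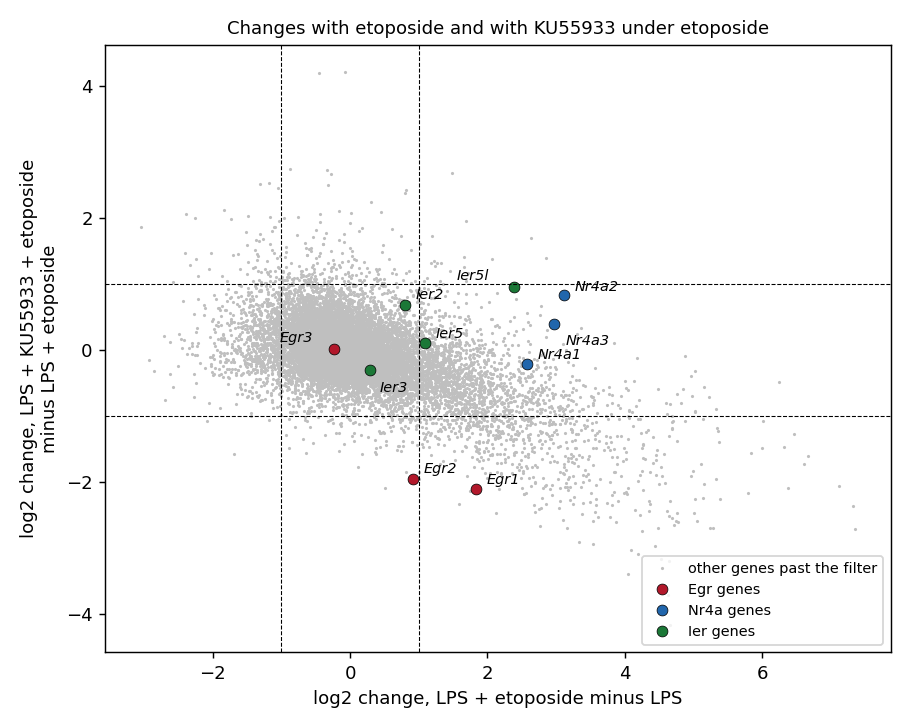
Log2 change in LE against LPS (x axis) and in LEKU against LE (y axis) for the 15592 genes that passed the filter (grey), with the members in colour and dashed lines at 2-fold. The axes share the LE libraries. Egr1 (1.83, -2.11) and Egr2 (0.91, -1.95) lie in the lower part of the cloud, and Nr4a2 (3.11, 0.84) and Ier5l (2.39, 0.95) in its upper part.

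The 6 members that were past 2-fold higher with etoposide differed in how much of that change was present with KU55933. Expressed as the log2 change of LEKU against LPS over that of LE against LPS, it was -15.1% for Egr1, 91.6% for Nr4a1, 110% for Ier5, 113% for Nr4a3, 127% for Nr4a2 and 140% for Ier5l. Of these 6, then, 4 were higher in LEKU than in LE. Of all 2211 genes past 2-fold higher with etoposide, 278 (12.6%) were higher in LEKU than in LE, 607 (27.5%) were past 2-fold lower, and the median change was -0.62. Egr1 was 1 of 33 genes of that set whose LEKU level was below that in LPS. Both values of each gene contain the LE libraries, and this comparison has no test.

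Genes outside the 3 families were read from lists of the same kind. Of 28 other immediate early genes, 27 passed the filter (Cyr61 did not). In LE against LPS, 15 of the 27 were past 2-fold higher (14.2% of all genes) and 2 past 2-fold lower (6.04%), with a median of 1.18. The highest were Fos (57.0 in LPS, 835 in LE and 900 in LEKU; change 3.85, SE 0.10) and Fosb (12.8, 160 and 94.4; change 3.55, SE 0.21), both subunits of the AP-1 factor. The lowest were Klf2 (-2.21), a factor of lymphocyte quiescence, and Myc (-1.26), a driver of growth. In LEKU against LE, 2 of the 27 were past 2-fold higher (1.78% of all genes) and 0 past 2-fold lower (4.59%), with a median of 0.19. These were Dusp4 (1.81), a phosphatase of ERK, and Ppp1r15a (1.19), a subunit that directs the dephosphorylation of eIF2α. The lowest there were Arc (-0.86) and Fosb (-0.76), so none of the list was as low as Egr1 or Egr2. In LEKU against LPS, 17 of the 27 were past 2-fold higher (11.1% of all genes) and 2 lower (5.96%). The median was 1.11, and Fos (3.96) and Klf4 (3.45) were highest.

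Transcripts of the upstream factors named above were read in the same way. Of 7 genes of the ERK cascade, 7 passed the filter, all 7 were lower in LE than in LPS, and 0 were past 2-fold (median -0.42). Of all 15592 genes, 7590 were higher in LE than in LPS (median -0.02). The list's values went from -0.55 for Map2k1 and -0.51 for Mapk3 to -0.23 for Rps6ka1 and -0.10 for Braf. In LEKU against LE the list's median was -0.08 with 0 past 2-fold, from -0.17 for Mapk3 to 0.41 for Map2k2. These are kinase transcripts, and kinase activity was not measured. Of 6 genes of SRF and its partners, 1 was past 2-fold in LE against LPS, Elk3 (-1.61), a ternary complex factor that can repress. Of all genes, 6.04% were past 2-fold lower there. Srf was at 0.46, Elk1 at 0.30 and Elk4 at -0.01, and the list's median was 0.19 in LE against LPS and -0.15 in LEKU against LE, where Mkl1 was lowest (-0.33) and Elk3 highest (0.21). Of 6 CREB factors and coactivators, only Crem was past 2-fold, at 768 in LPS, 2424 in LE and 5821 in LEKU. Its changes were 1.66 (SE 0.031) in LE against LPS and 1.26 (SE 0.017) in LEKU against LE. Of all genes, 14.2% and 1.78% were past 2-fold higher in these comparisons. Crem, whose products activate or repress at CREB elements, thus had the same order of conditions as Nr4a2, Nr4a3, Ier2, Ier5 and Ier5l. For Ier5 the step from LE to LEKU was only 0.11. The order was not particular to these genes. On the immediate early list, Fos, Jun, Junb, Atf3, Dusp1, Dusp4, Dusp5, Zfp36, Klf4, Rhob, Gadd45b, Nfkbia, Csrnp1, Ppp1r15a and Sgk1 also had it. So did Hspa1a and Hspa1b, and its share over all genes was not counted. The other CREB factors were between -0.53 (Crtc3) and 0.15 (Crtc1) in LE against LPS, with Creb1 at -0.34, and the list's medians were -0.18 and 0.09.

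**Figure D4:**
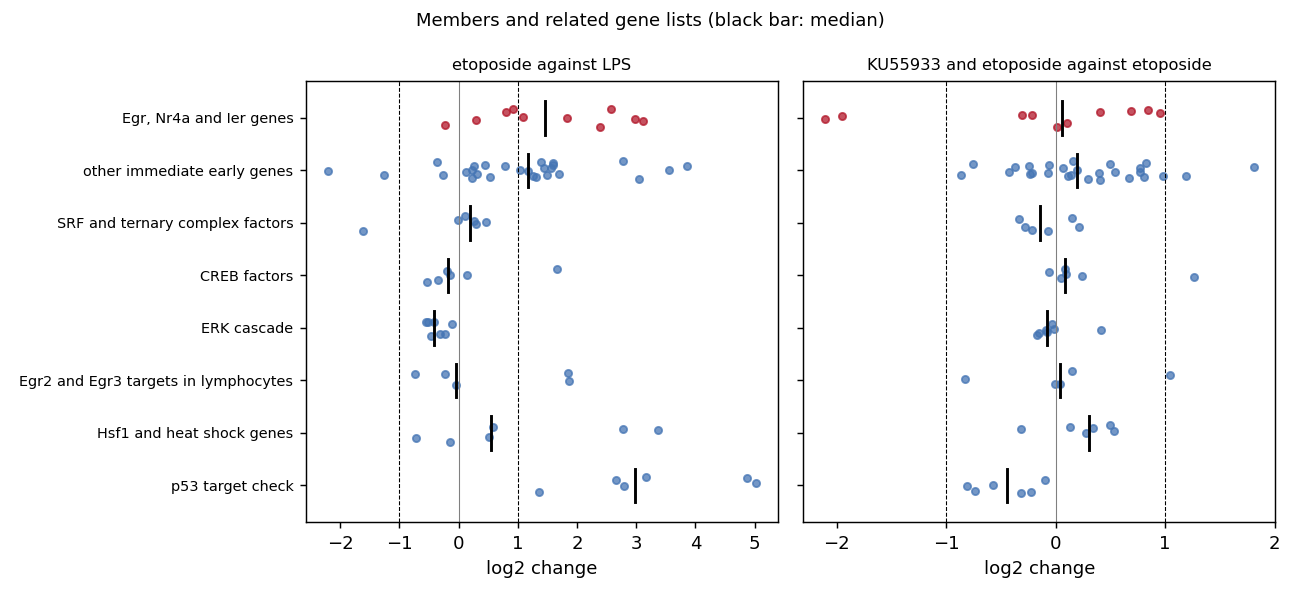
Log2 changes in LE against LPS (left) and LEKU against LE (right) for the members (red) and for 7 of the lists (blue, 1 point per gene that passed the filter, shifted vertically at random for legibility), with the median as a black bar and dashed lines at 2-fold. The members spread from -0.23 to 3.11 on the left and from -2.11 to 0.95 on the right, where Egr1 and Egr2 stand apart from the other 8.

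The genes with the most similar pattern were found by the distance between their 2 log2 changes against LPS and those of a member, over 10873 genes with a mean scaled count of at least 100. The closest to Egr1 were Gpr55 (distance 0.42; 351, 1328 and 385 in LPS, LE and LEKU) and Piwil2 (0.50). The closest to Egr2 were Ada (0.21) and Ptgr1 (0.31). Nr4a1 was nearest to Pmaip1 (0.065; 1183, 6782 and 6219), which encodes the p53 target Noxa, and to Zfp874a (0.085). Nr4a2 was nearest to Hspa1a (0.36) and Fosl2 (0.39), and Nr4a3 to Klf4 (0.21) and Hspa1b (0.22). For Ier2 the nearest were Letm2 (0.043) and Plod1 (0.055), for Ier5 H2afj (0.027) and F8a (0.043), and for Ier5l Bzrap1 (0.15) and Tsc22d1 (0.27). Egr1 had the largest distance to its nearest gene of these 8 members. With 3 fitted values per gene, such a distance is a description only.

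The members spanned 1.24 kb (Ier3) to 41.3 kb (Nr4a3), with a median of 5.29 kb, against 17.5 kb for all genes with an annotated span. Among genes no longer than the longest member, 14.3% were past 2-fold higher in LE than in LPS, and among longer genes 13.8%. No other annotated gene of GENCODE M21 overlapped any of the 10. For some members the fitted values did not average to the authors' own mean count over all libraries. The mean of the fitted values, on the authors' scaling, was 13.3% lower than the authors' mean for Ier5l (227 against 262), 7.96% lower for Egr1 (425 against 461), 4.66% for Egr2, 3.28% for Nr4a2 and 1.77% for Nr4a3. For the other 5 members it was within 1%. The range from the 5th to the 95th percentile over all genes was -0.27% to 1.77%. Only 8 genes had a larger gap than Ier5l and 69 a larger one than Egr1. What produced the gap was not tested, and it could not be assigned to any 1 condition. The counting errors above leave it out. For Ier5l, at 41.2 in LPS, a gap lying wholly in LPS would take its change in LE against LPS under 2-fold. For Egr1, at 195 in LEKU, a gap lying wholly in LEKU would move its change there by more than the SE.

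**Figure D5:**
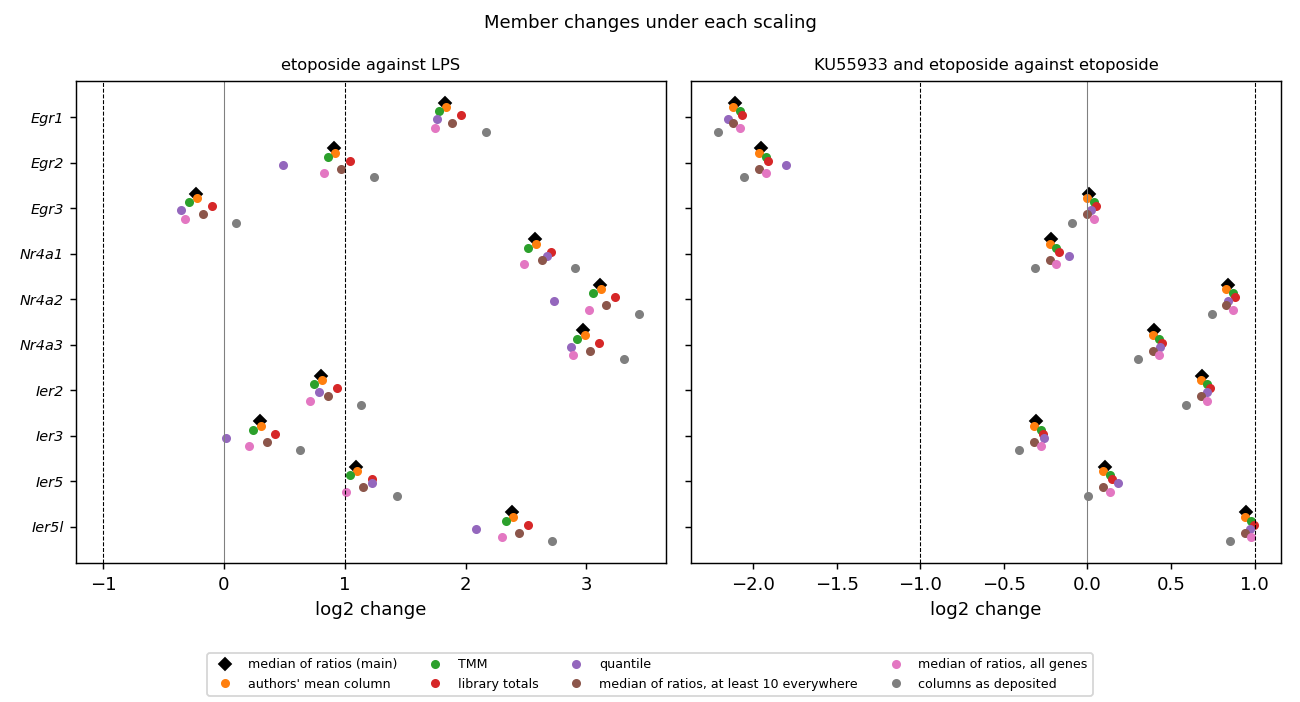
Log2 change of each member in LE against LPS (left) and LEKU against LE (right) under the scaling used here (black diamonds) and 7 others (circles), with dashed lines at 2-fold. Egr1 and Egr2 stay below -1 on the right under every scaling, the 3 Nr4a genes and Ier5l stay above 2 on the left, and Egr3 crosses 0 on both sides. All scalings start from the same fitted values, so their range leaves out any error in these.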

How the data were processed

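The authors prepared polyA libraries with an Illumina TruSeq mRNA kit, trimmed reads with Trim Galore (cutadapt 1.2.1), mapped them to GRCm38 with TopHat2 2.0.12, used HTSeq to count reads per Ensembl gene, and fitted the counts with DESeq2 1.6.3. They deposited 1 table of normalised counts, a signal that in fact holds the fitted mean of a condition times a library's size factor, and 3 tables of comparisons whose fold changes and p-values were not used. From the latter, the mean count served as an alternative scaling. Whether counting used strand is not given in the sources used here.

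The 12 columns were scaled together by the median of ratios over genes with at least 10 in at least 4 columns, a gene set chosen after seeing the data, and compared as log2(value + 1) with Python 3.11.15, numpy 2.4.6, scipy 1.17.1 and pandas 2.3.3. With no spread between replicates left, there is no test, and counting intervals are exact Poisson intervals. In a simulation on 29486 genes without added noise, 100% of 200 changed genes were recovered in LE against LPS. Every seeded change was larger than 2-fold, so the outcome was set in advance. It checks the arithmetic only and says nothing of sensitivity. Coordinates are from GENCODE M21. Members, lists and motifs were chosen with earlier results of these data known. All 10 members are named. Genes of the lists were named from the 2 highest and the 2 lowest changes of each comparison, not all of which are printed. Alternatives covered other scalings, pseudocounts, filters, a fold of 1.5 and leaving out each library. In 2 of the lists, 1 gene each is not reported here and was left out of the counts.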

Additional observations from a re-analysis of the deposited data

How the results depend on the processing

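Over 24 alternatives, the number of members past 2-fold lay between 6 and 8 in LE against LPS (6 as reported) and between 6 and 7 in LEKU against LPS (7 as reported), and that of the other immediate early genes past 2-fold in LE against LPS between 16 and 18 (17 as reported). In LEKU against LE it was 2 throughout, except that a fold of 1.5 gave 5, since a lower fold lets more genes pass. No called value changed sign. Of 720 recomputed changes of members, 659 moved by less than their 95% counting interval and 61 by more, and of 624 recomputed counts over the other lists, 610 stayed within 1.5 times the reported count and 14 did not. Many of the 659 could not have moved further. The other filters and the fold of 1.5 leave a member's change as it is, and leaving out a library barely moves it by construction. The 659 are therefore no measure of stability. The 2 scalings by other gene sets for the median of ratios were chosen after seeing the data. Library totals moved the median of all genes by 0.13 in LE against LPS and by 0.18 in LEKU against LPS, and the columns as deposited moved it by 0.33 and 0.23. Egr2 in LE against LPS ranged from 0.48 to 1.24 and Ier2 from 0.71 to 1.14 over the scalings, so both crossed 2-fold. Leaving out each of the 12 libraries moved no member's change by more than 0.016, as the construction of the columns implies, and says nothing of the spread between replicates. No paired analysis was possible because the columns of a condition hold 1 fitted mean and no result comes from a test. The widest counting error of a member was that of Egr2 in LEKU against LPS (SE 0.20). Whether depth limited the precision cannot be said, because the spread between replicates is not in these values.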
